A study of Mus musculus with 20 samples.

Results

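DNA damage repair genes were examined in FACS-purified MycCaP-Bo tumor cells from mouse bone metastases. The 42 genes were taken by name for their role in sensing DNA damage or in one of the main repair routes, out of 13850 genes measured in all libraries. The choice used no cutoff on their values, but earlier results of these data were known when it was made. MycCaP-Bo is a bone-homing subline of MycCaP, an androgen-dependent line from a Myc-driven murine prostate tumor, and it carries luciferase and the fluorescent protein iRFP. Mice of 4 to 6 weeks received 400000 cells into the heart. Tumor cells were sorted as CD45- iRFP+, and each library held the cells of 3 pooled mice, so that a library and not a mouse is the replicate. Naive tumors had vehicle. Resist tumors had the anti-androgen enzalutamide at 30 mg/kg by daily gavage for 18 days. Resist-Mac tumors had the same enzalutamide plus liposomal clodronate, which kills phagocytic macrophages, at 1 mg per mouse by intravenous injection 2 times a week over the last 4 days. Naive-Mac tumors had the liposomal clodronate and no enzalutamide, and the length of that treatment is not given in the sources used here. There were 5 libraries in each of the 4 groups. All groups share the one cell line, and nothing says whether replicate libraries came from separate experiments, so p-values measure the spread between these libraries.

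A cell repairs a broken or altered base by a route that fits the lesion. Double-strand breaks are found by the Mre11, Rad50 and Nbn complex, signaled by the kinases Atm and Atr, and mended by homologous recombination on the sister chromatid or by end joining, which ligates the ends. Small base lesions and single-strand breaks go to base excision repair with Parp1, bulky and ultraviolet lesions to nucleotide excision repair, replication errors to mismatch repair, and crosslinks to the Fanconi anaemia pathway. In prostate cancer, androgen signaling is known to support repair gene expression, and mutations of BRCA2 and ATM are found in advanced disease. The libraries speak of mRNA levels only and hold no measure of DNA damage or of repair.

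The values are FPKM, fragment counts scaled to transcript length and to the fragments of the library, as deposited by the authors. Read counts and depth are unknown, so no counting error can be given. Naive and Resist libraries were labeled batch 1, Resist-Mac batch 2 and Naive-Mac batch 3, so that macrophage depletion and batch cannot be told apart in any comparison with a depleted group. Summed FPKM lay between 481161 and 530961 in Naive and Resist libraries, between 617494 and 761510 in Resist-Mac and between 882276 and 1040440 in Naive-Mac libraries. The epithelial markers summed to 1377 to 2455 FPKM over the 20 libraries, with the keratin gene Krt8 at 84.8 to 408 FPKM. Krt18 was at 0.23 FPKM or below throughout. The 12 neutrophil markers summed to 61.9 to 1277 FPKM in Naive and Resist libraries, to 407 to 8812 in Resist-Mac and to 59.5 to 6182 in Naive-Mac. The 15 macrophage markers summed to 4.19 to 112 FPKM in Naive and Resist libraries, to 38.8 to 879 in Resist-Mac and to 5.35 to 536 in Naive-Mac, while Adgre1, which encodes F4/80, was at 0.52 FPKM or below everywhere. In bulk RNA, fewer cells of one type and less RNA per cell cannot be told apart.

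In Naive tumors the repair genes spanned a wide range of levels on the length-scaled FPKM scale. Apex1, the main abasic-site endonuclease, was highest at 74.3 ± 1.39 FPKM (SD, n = 5), followed by Trp53 at 42.2 ± 3.59 and Parp1 at 37.8 ± 2.77. Xpc, the damage sensor of nucleotide excision repair, was at 22.4 ± 2.13 FPKM and Mdm2, the ubiquitin ligase that limits p53, at 20.5 ± 2.29. All told, 13 of the 42 genes had a Naive mean of at least 10 FPKM, and 4 of these were among the 6 genes of base excision and single-strand break repair.

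Homologous recombination genes had the lowest median of the 8 role groups, 1.71 FPKM. All 10 lay between 0.532 FPKM for Rad51b, a paralog of the strand-exchange recombinase, and 2.95 FPKM for the helicase Blm. Brca1 was at 1.54 ± 0.188 FPKM and Brca2 at 1.21 ± 0.0792. Palb2, which joins Brca1 to Brca2, averaged 0.622 FPKM. Rad51b and Palb2 had a mean below 1 FPKM in every pair of groups compared and were not tested. Brca2 was not tested in either depletion comparison, nor was Brca1 in the comparison of Naive-Mac with Naive. Their values are given from a fit without that filter.

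The first comparison asked whether repair gene expression differed in tumors that grew under enzalutamide. Of the 40 genes tested in Resist against Naive, 1 was called higher and 0 lower by limma, which asked for more than a 1.5-fold change and an adjusted p under 0.05. Of all 10119 genes tested, 6.35% were called. At an adjusted p under 0.05 without the fold change there were 2 repair genes, against 18.9% of all genes. At an unadjusted p under 0.05 there were 7, a count for which the share over all genes was not taken. The median log2 change of the 40 genes was -0.05, where the median over all genes tested was 0.03, and 25 of the 40 were negative. Under quantile normalization the median was -0.18 with 35 negative, against -0.03 over all genes, and with transcript length and GC corrected for it was -0.13 with 31 negative, against -0.04. For 37 of the 40 genes the 95% interval of the change lay wholly within 1.5-fold in either direction. These intervals are on the log2(FPKM + 1) scale, which understates the change of low genes. With 0.1 added to FPKM instead, 29 of the 40 lay within 1.5-fold.

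**Figure D1:**
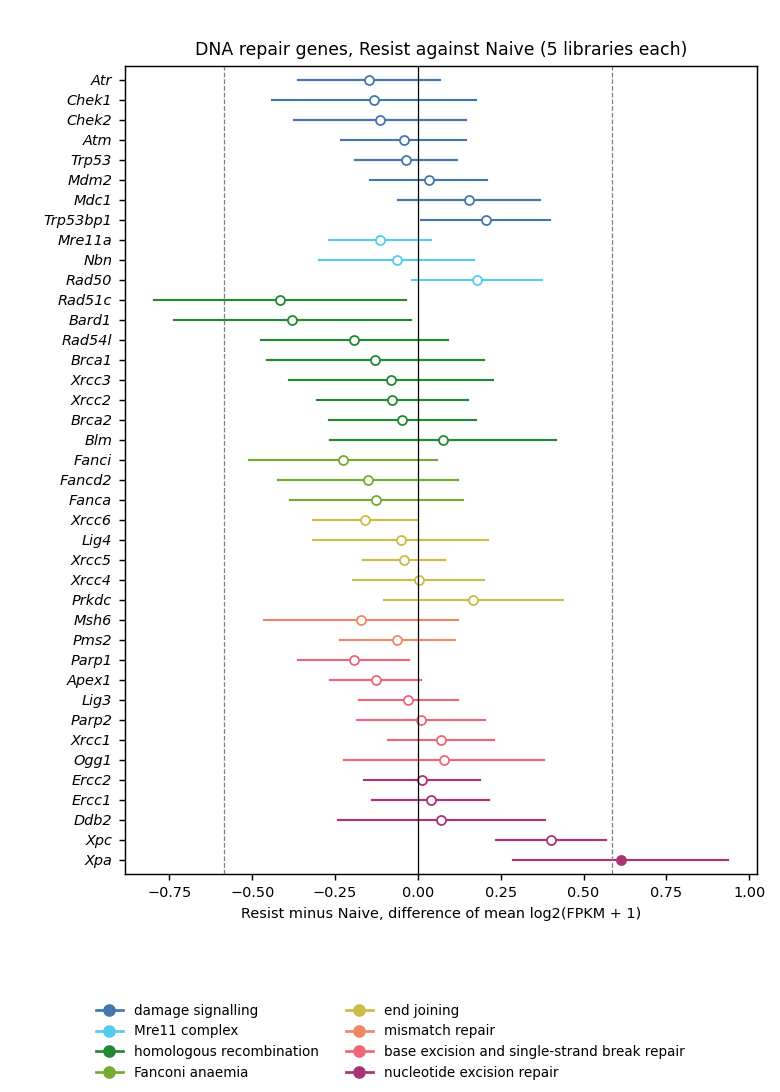
Difference of mean log2(FPKM + 1) between 5 Resist and 5 Naive libraries for the 40 repair genes tested, ordered by role, with 95% intervals from limma as bars and dashed lines at a 1.5-fold change. Only Xpa, drawn as a filled point at 0.61, was called, and 37 of the 40 intervals lie between the dashed lines.

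The gene called higher was Xpa, which encodes the scaffold protein that checks the lesion in nucleotide excision repair. Xpa read 7.24, 6.24, 4.95, 3.77 and 4.86 FPKM in Naive libraries 1 to 5. In Resist libraries 1 to 5 it read 8.72, 8.62, 9.60, 10.18 and 6.47 FPKM. Resist library 5 lay below the highest Naive library, so the groups overlapped. The log2 change was 0.61 ± 0.15 (SE, adjusted p = 0.0149), or 1.61-fold in means. The call sits close to the 1.5-fold limit. It was lost without Naive library 4 (0.51), Resist library 3 (0.58) or Resist library 4 (0.56), and under median-ratio scaling (0.57) or quantile normalization (0.49), while the adjusted p stayed under 0.05 in each of these.

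Xpc was the only tested repair gene whose Naive and Resist libraries did not overlap, which held for 12.8% of all genes. It read 22.79, 24.73, 18.95, 23.22 and 22.45 FPKM in Naive and 31.95, 30.74, 27.37, 31.19 and 28.22 FPKM in Resist. Its log2 change of 0.40 ± 0.08 had an adjusted p of 0.00454 and a 95% interval of 0.23 to 0.57, below the fold change limit. The other genes of nucleotide excision repair were near their Naive level, with log2 changes of 0.04 for the nuclease subunit Ercc1, 0.01 for the helicase Ercc2 and 0.07 for the damage-binding subunit Ddb2. All 5 had a positive estimate on the deposited values, with a median of 0.07, and 1 was called. After the length and GC correction 3 were positive and 2 negative.

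In homologous recombination 0 of 8 tested genes were called, and 7 of 8 had a negative estimate with a median of -0.11. Rad51c, another such paralog, had the most negative value of the 40 genes. It read 1.95, 1.86, 1.56, 2.66 and 2.93 FPKM in Naive and 0.84, 1.01, 1.47, 1.38 and 2.36 FPKM in Resist, so that both groups overlapped (log2 change -0.42 ± 0.18, adjusted p = 0.113). Under quantile normalization Rad51c was called lower at -0.59 and Xpa was not called. Bard1, the partner of Brca1, had a log2 change of -0.38 ± 0.16 with an adjusted p of 0.124.

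Brca1, the organizer of end resection and recombination, read 1.79, 1.48, 1.69, 1.35 and 1.41 FPKM in Naive and 0.61, 1.31, 1.74, 1.39 and 1.77 FPKM in Resist. Resist library 1 was low and the other 4 lay within or close to the Naive range. The log2 change was -0.13 with a 95% interval of -0.46 to 0.20 (adjusted p = 0.579). Brca2, the loader of the recombinase, read 1.14, 1.34, 1.21, 1.16 and 1.18 FPKM in Naive and 0.98, 1.03, 1.32, 1.10 and 1.26 FPKM in Resist. Its groups overlapped, and the log2 change was -0.05 with a 95% interval of -0.27 to 0.18.

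Among the 8 genes of damage signaling 0 were called, with a median of -0.04. Atm, the kinase activated by double-strand breaks, read 3.34, 3.65, 3.58, 3.13 and 3.15 FPKM in Naive and 2.79, 3.19, 3.22, 3.49 and 3.54 FPKM in Resist (log2 change -0.04, 95% interval -0.23 to 0.15). Trp53, which encodes the p53 tumor suppressor, read 38.44, 46.27, 43.10, 44.73 and 38.51 FPKM in Naive and 38.77, 38.74, 42.07, 44.84 and 41.06 FPKM in Resist (log2 change -0.04, 95% interval -0.19 to 0.12). Both genes had overlapping groups. The largest value of this group was that of Trp53bp1, which favors end joining over resection. It read 4.54, 4.38, 5.29, 4.81 and 4.24 FPKM in Naive and 4.59, 5.66, 5.81, 6.18 and 5.36 FPKM in Resist, with a log2 change of 0.20 ± 0.09 (adjusted p = 0.129).

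The remaining routes had 0 genes called. Of the Mre11 complex, Rad50 had the largest value, 0.18 ± 0.09 (adjusted p = 0.182), with 7.93, 8.08, 8.54, 6.64 and 7.05 FPKM in Naive and 8.47, 7.66, 9.36, 10.09 and 8.37 FPKM in Resist. Of end joining, Prkdc, the catalytic subunit of the DNA-dependent kinase, had a log2 change of 0.17 ± 0.12 (adjusted p = 0.364). It read 2.13, 2.45, 2.38, 2.05 and 2.08 FPKM in Naive and 1.93, 2.81, 2.96, 3.46 and 2.10 FPKM in Resist, with the Resist libraries the more scattered. The 3 Fanconi anaemia genes had negative estimates between -0.23 and -0.13. Fanci, one of the paired subunits placed on crosslinks, had the largest of them at -0.23 ± 0.13 (adjusted p = 0.241). It read 1.99, 1.16, 1.5, 1.36 and 1.25 FPKM in Naive and 0.71, 1.31, 1.18, 1.00 and 1.27 FPKM in Resist.

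Parp1, the sensor of single-strand breaks and the target of PARP inhibitors, read 37.14, 39.50, 40.82, 33.54 and 38.20 FPKM in Naive and 30.53, 30.54, 36.08, 30.96 and 36.93 FPKM in Resist. The log2 change of -0.19 ± 0.08 did not pass the test (adjusted p = 0.0978). Once length and GC content of the transcript were corrected for, the value was -0.30 with an adjusted p of 0.0228, still short of the fold change limit. The mismatch repair gene Msh6, a subunit of the mismatch sensor, read 12.05, 11.13, 13.99, 11.03 and 8.12 FPKM in Naive and 8.81, 8.53, 10.28, 8.91 and 12.73 FPKM in Resist. The groups overlapped, with a log2 change of -0.17 ± 0.13 and an adjusted p of 0.390.

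A wider set of 143 repair genes that are not among the 42 gave a like picture. Of 129 tested, 0 were called higher and 1 lower, with a median of -0.02, where 6.35% of all genes were called. The gene called lower was Pole4, a small accessory subunit of DNA polymerase epsilon, at 18.1 FPKM in Resist against 29.4 FPKM in Naive (log2 change -0.68, adjusted p = 0.00495). The wider list of homologous recombination had 0 of 28 called with a median of -0.08, and that of nucleotide excision repair 0 of 22 with a median of 0.01.

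The second comparison set Resist-Mac against Resist and asks what macrophage depletion did to the resistant tumor cells, with batch 2 against batch 1. Of 39 genes tested, 4 were called lower, where 9.71% of all 10049 genes were, and 0 higher, where 12.0% were. A noise-distribution method modeled on the one the study used called 0 of them and 1079 of all genes. It also weighs the absolute difference in FPKM, so genes of low FPKM pass it less easily. At an unadjusted p under 0.05 there were 11 repair genes, again with no share over all genes taken. The 4 genes were Atm, Trp53bp1, Mdc1 and Rad50. The median of the 39 genes was -0.03, against 0.02 over all genes, and 8 genes had groups that did not overlap, against 29.7% of all genes.

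Atm read 1.54, 1.28, 1.66, 2.07 and 1.19 FPKM in Resist-Mac libraries 1 to 5, where every Resist library was at 2.79 FPKM or above. The log2 change was -0.74 ± 0.13 (adjusted p = 0.000861). Trp53bp1 read 3.24, 2.38, 3.63, 2.86 and 3.17 FPKM in Resist-Mac, all below the lowest Resist library at 4.59 FPKM (log2 change -0.69 ± 0.12, adjusted p = 0.000831). Rad50, the structural arm of the break-sensing complex, read 5.47, 4.05, 5.65, 6.05 and 6.57 FPKM, again without overlap (log2 change -0.59 ± 0.12, adjusted p = 0.00263). Mdc1, the adaptor that binds phosphorylated histone at breaks, read 2.07, 2.11, 2.66, 3.55 and 2.48 FPKM in Resist-Mac, and its highest library just passed the lowest Resist library at 3.54 FPKM (log2 change -0.63 ± 0.14, adjusted p = 0.00411). The count fell to 2 without Resist library 4, Resist-Mac library 1 or Resist-Mac library 2. With only the 2 Resist-Mac libraries poor in neutrophil markers all 4 genes were called.

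These calls moved with transcript length. The longest annotated transcripts of the 4 genes ran from 5153 bases for Rad50 to 9819 bases for Atm, where the median of the 39 genes was 3944 bases. Across the 39 genes the Spearman correlation of the log2 change with length was -0.73, and across the 10027 tested genes with a length it was -0.64. Genes of one library share its RNA and depth, so both are descriptions. Of the 20 shorter genes 0 were called lower, with a median of 0.10, and of the 19 longer genes 4 were called lower, with a median of -0.28. After each library was corrected for transcript length and GC content, 0 of the 39 genes were called, where 8.77% of all genes were. The correlation with length was then 0.31 over the 39 genes and 0.02 over the 10027, so the repair genes kept a trend of the other sign. Atm then had a log2 change of -0.21 (adjusted p = 0.206), Trp53bp1 of -0.08 and Mdc1 of -0.12, while Rad50 kept an adjusted p of 0.0126 at -0.37, below the fold change limit.

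**Figure D2:**
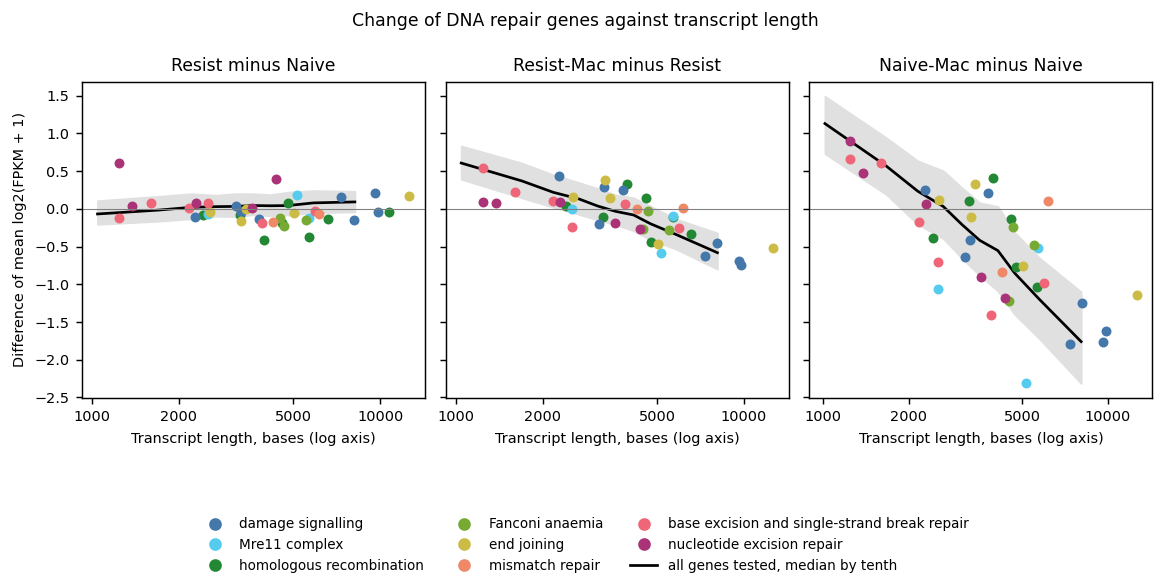
Difference of mean log2(FPKM + 1) against the length of the longest annotated transcript for each repair gene tested, colored by role, in 3 comparisons. The black line and grey band give the median and quartiles of all genes tested by bin of length, and both the line and the repair genes slope downward in the depletion comparisons (Spearman -0.73 and -0.68 for the repair genes) but not in Resist minus Naive (-0.10).

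Other repair genes stayed short of a call in Resist-Mac. Apex1 passed the p threshold without reaching the fold change limit, with 95.82 to 101.92 FPKM in Resist-Mac above the 64.91 to 79.19 FPKM of Resist (log2 change 0.54 ± 0.08, adjusted p = 0.000244), and had a value of 0.02 after the correction. Xrcc6, the Ku70 subunit that caps broken ends, had a log2 change of 0.39 ± 0.09 (adjusted p = 0.00486) and one of 0.38 after it (adjusted p = 0.0332). Prkdc read 1.22, 1.70, 1.47, 1.79 and 1.43 FPKM, all below Resist (log2 change -0.52 ± 0.15, adjusted p = 0.0138), and had a value of 0.14 after the correction. Brca1 at 0.68, 0.70, 0.75, 0.93 and 1.24 FPKM overlapped Resist (log2 change -0.33, adjusted p = 0.157). Brca2 at 0.55, 0.42, 0.74, 0.53 and 0.82 FPKM lay below every Resist library (log2 change -0.41, adjusted p = 0.00453 in the fit without a filter).

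Parp1 and Trp53 varied more among Resist-Mac libraries than in any other group. Parp1 read 31.64, 23.02, 32.63, 41.61 and 49.64 FPKM, on both sides of Resist, with a log2 change of 0.07 and a 95% interval of -0.30 to 0.44. Trp53 read 52.19, 36.11, 47.52, 52.73 and 69.93 FPKM, with 4 of 5 libraries above every Resist library (log2 change 0.30 ± 0.14, adjusted p = 0.108). Xpa, the gene called in Resist, was at 9.92, 7.16, 10.02, 9.97 and 9.42 FPKM, wholly within the Resist range of 6.47 to 10.18 FPKM (log2 change 0.09, 95% interval -0.20 to 0.37). Xpc read 25.86, 17.81, 21.14, 35.01 and 26.08 FPKM, with a log2 change of -0.27 ± 0.15 (adjusted p = 0.156). In the 2 Resist-Mac libraries whose neutrophil marker sum did not exceed that of every Naive and Resist library, that value was -0.60 and Xpc was called lower.

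The third comparison set Naive-Mac against Naive, batch 3 against batch 1. Here 21 of 38 tested repair genes were called, 18 lower and 3 higher. The background was high, with 37.5% of all 9837 genes called lower and 22.1% called higher, and the noise-distribution method called 3 repair genes lower and 1 higher, where it called 1980 of all genes lower and 1647 higher. Groups did not overlap for 24 of the 38 repair genes and for 66.0% of all genes. The median log2 change was -0.50, against -0.23 over all genes tested. Scaling by the median ratio moved the median of all genes to 0.02 and gave 15 lower and 6 higher repair genes, where 2966 of all genes were lower and 2974 higher. Quantile normalization gave 6 lower and 10 higher repair genes, where 2628 of all genes were lower and 2855 higher.

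Rad50 had the lowest value of all 38. It read 0.30, 1.05, 0.49, 0.80 and 1.28 FPKM in Naive-Mac, where the lowest Naive library was at 6.64 FPKM, a 9.76-fold difference in means (log2 change -2.30 ± 0.16, adjusted p = 1.76e-08). Mdc1 read 0.37, 0.47, 0.24, 0.56 and 0.46 FPKM against 3.67 to 4.08 FPKM in Naive (log2 change -1.79 ± 0.11). Trp53bp1 read 0.41, 0.59, 0.64, 0.87 and 0.82 FPKM against 4.24 to 5.29 FPKM (log2 change -1.77 ± 0.12). In these 3 genes every Naive-Mac library lay below every Naive library.

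Atm read 0.08, 0.49, 0.58, 0.43 and 0.60 FPKM in Naive-Mac (log2 change -1.62 ± 0.13, adjusted p = 7.30e-08), and Atr, its counterpart at stalled forks, read 1.64, 1.89, 2.41, 2.29 and 2.21 FPKM against 5.98 to 6.76 FPKM in Naive (log2 change -1.24 ± 0.11). Prkdc read 0.23, 0.44, 0.53, 0.61 and 0.47 FPKM (log2 change -1.15 ± 0.11, adjusted p = 5.50e-07). None of these libraries reached the Naive range. Trp53 was nearer to its Naive level at 27.74, 32.79, 31.94, 35.24 and 29.39 FPKM, below every Naive library but short of the fold change limit (log2 change -0.42 ± 0.09, adjusted p = 0.000895).

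Nbn, the third member of the Mre11 complex, read 4.23, 4.09, 6.79, 6.10 and 5.49 FPKM in Naive-Mac against 13.13, 10.23, 14.01, 12.55 and 10.80 FPKM in Naive (log2 change -1.06 ± 0.14, adjusted p = 1.17e-05). Parp1 read 11.53, 13.35, 14.89, 14.63 and 13.71 FPKM, a 2.78-fold difference from Naive without overlap (log2 change -1.41 ± 0.09, adjusted p = 1.37e-08). Fanca, a core subunit of the Fanconi anaemia ligase, read 0.38, 1.03, 1.96, 1.24 and 2.19 FPKM against 3.30 to 5.38 FPKM in Naive (log2 change -1.22 ± 0.21). Xpc read 6.28, 12.41, 9.59, 9.95 and 9.18 FPKM against 18.95 to 24.73 FPKM (log2 change -1.18 ± 0.14). All 4 genes were therefore lower in every Naive-Mac library than in any Naive library.

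Brca1 and Brca2 were near the floor of the table in Naive-Mac tumors. Brca1 read 0.05, 0.46, 0.39, 0.31 and 0.33 FPKM and Brca2 0.07, 0.12, 0.09, 0.04 and 0.19 FPKM, where their lowest Naive libraries were at 1.35 and 1.14 FPKM. The fit without a filter gave log2 changes of -0.97 for Brca1 (adjusted p = 5.62e-06) and -1.002 for Brca2 (adjusted p = 4.88e-08), on a scale that understates the change of low genes.

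The 3 genes called higher were Xpa, Apex1 and Ogg1, the glycosylase for oxidized guanine. Xpa read 8.55, 13.07, 13.05, 8.48 and 11.34 FPKM, all above the highest Naive library (log2 change 0.90 ± 0.17, adjusted p = 0.000285). Apex1 lay between 111.2 and 127.1 FPKM against 72.33 to 75.72 FPKM in Naive (log2 change 0.67 ± 0.06), and Ogg1 overlapped Naive with a log2 change of 0.60 ± 0.16. These 3 have transcripts of 1241, 1239 and 1601 bases, short for this set.

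**Figure D3:**
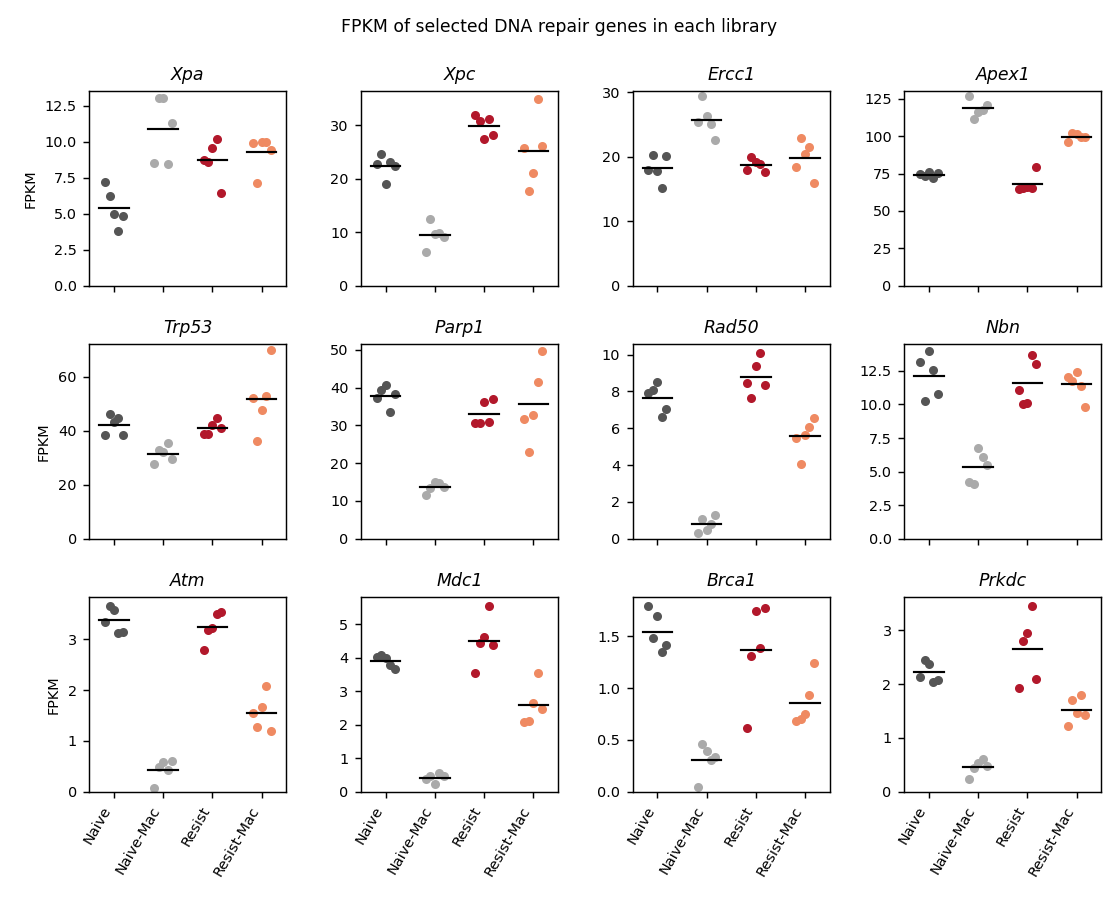
FPKM of 12 repair genes in each of the 20 libraries, with a point per library, a bar at the group mean and axes that start at 0. Atm, Mdc1, Rad50 and Prkdc step down from undepleted to depleted tumors, whereas Apex1 steps up, and Xpa and Xpc are higher in Resist than in Naive.

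By role, where 37.5% of all genes were called lower in Naive-Mac and 22.1% higher, damage signaling had 5 of 8 genes called lower and the Mre11 complex 2 of 3. After the length and GC correction 0 of the 8 were called, and 2 of the 3 were called lower. Mre11a was not called on either scale, with a log2 change of -0.52 before the correction and 0.54 after it. The counts that follow are on the deposited values. Base excision and single-strand break repair had 3 of 6 lower and 2 higher, and nucleotide excision repair 2 of 5 lower and 1 higher. End joining had 2 of 5 called lower, namely Prkdc and Lig4, the ligase of that route, while the Ku subunits Xrcc5 and Xrcc6 had log2 changes of 0.11 and -0.10. Homologous recombination had 2 of 6 tested genes lower, Bard1 at -1.04 and Blm at -0.77. Rad51c, at 2.90, 1.75, 5.87, 3.83 and 2.62 FPKM, was not called (log2 change 0.41 ± 0.22, adjusted p = 0.0991). In mismatch repair Msh6 was called lower at 3.49, 5.11, 6.73, 6.91 and 7.47 FPKM (log2 change -0.84 ± 0.18), and Pms2, the partner nuclease subunit, was not (log2 change 0.10).

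Transcript length went with these values more steeply than in Resist-Mac. The Spearman correlation of log2 change with length was -0.68 over the 38 repair genes and -0.71 over 9655 genes. Of the 19 shorter genes 5 were called lower and 3 higher with a median of 0.06, and of the 19 longer genes 13 were called lower and 0 higher with a median of -0.98. The correction for length and GC content left 7 genes called, 3 lower and 4 higher, where 36.9% of all genes were called. The median then was -0.04. The Spearman correlation with length was then 0.43 over the 38 repair genes and -0.02 over 9655 genes. The corrected values of the repair genes were therefore not free of length. Atm had a value of -0.04, Mdc1 of -0.15, Trp53bp1 of 0.04 and Atr of 0.08, none of them past the test.

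The 3 genes that were called lower both before and after the correction were Rad50 (-1.42, adjusted p = 1.98e-06), Nbn (-1.41, adjusted p = 2.16e-07) and Parp1 (-0.72, adjusted p = 1.55e-06). Nbn has a transcript of 2533 bases, below the median length of the set. With the length of the principal transcript in place of the longest one, Rad50 and Nbn were again called at -1.27 and -1.18, and Parp1 at -0.54 passed the p threshold but not the fold change. With only the 2 Naive-Mac libraries poor in neutrophil markers, and with no correction, the values were -1.995 for Rad50, -1.18 for Nbn and -1.42 for Parp1, all called. The 4 genes called higher after the correction, all among the 19 longer genes, were Pms2 (1.38), Rad51c (0.79), Prkdc (0.67) and Rad54l (0.63). Of these, Prkdc had been called lower on the deposited values, and the other 3 had not been called.

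**Figure D4:**
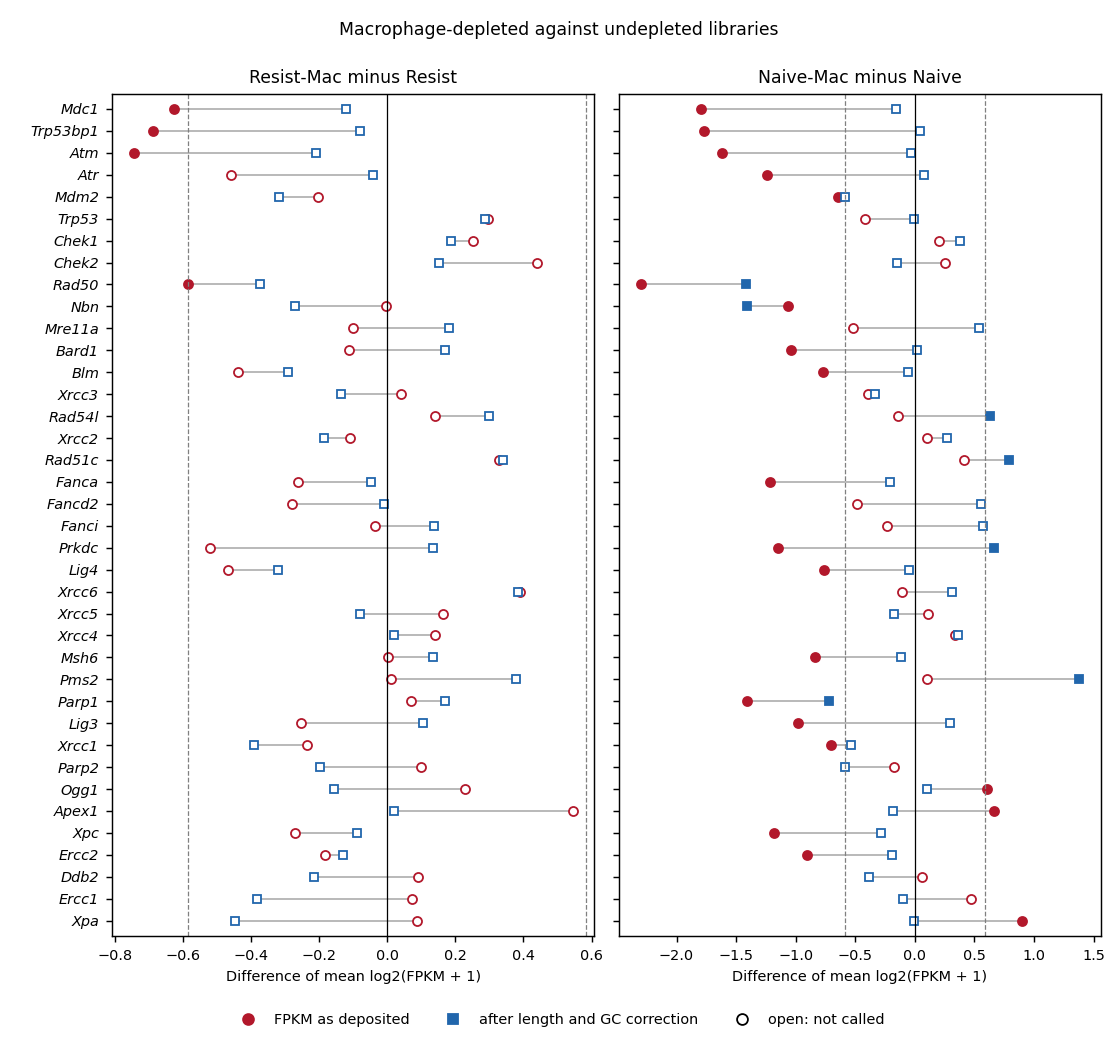
Difference of mean log2(FPKM + 1) for each repair gene in Resist-Mac minus Resist and in Naive-Mac minus Naive, on the deposited FPKM (circles) and after the length and GC correction (squares), with filled symbols for called genes and dashed lines at 1.5-fold. In Naive-Mac minus Naive, Rad50, Nbn and Parp1 carry filled symbols below 0 on both scales, and 21 filled circles give way to 7 filled squares.

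Whether depletion had a different effect in resistant and in naive tumors was tested as the difference of both effects, with batches 1, 2 and 3 all in it. On the deposited values 16 of 39 repair genes were called above 0, that is less lowered in the resistant pair, where 32.5% of all 9876 genes were, and 1 was called below 0. The median difference was 0.43 against 0.28 over all genes. After the length and GC correction 4 were called, where 24.1% of all genes were. Rad50 had a difference of 1.06 ± 0.17 (adjusted p = 5.42e-05), Nbn of 1.12 ± 0.15 (adjusted p = 7.49e-06) and Parp1 of 0.92 ± 0.14 (adjusted p = 5.23e-05), and Pms2 one of -0.97 ± 0.23 (adjusted p = 0.00252). Nbn shows the contrast in the values themselves, since its 5 Resist-Mac libraries at 12.07, 11.77, 12.45, 11.38 and 9.80 FPKM were close to Resist and each more than any Naive-Mac library.

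The wider set of 143 repair genes was also examined under depletion. In Resist-Mac against Resist 16 of 130 tested were called higher and 4 lower, with a median of 0.07, where the shares over all genes were 12.0% higher and 9.71% lower. In Naive-Mac against Naive 34 of 124 were called higher and 28 lower, with a median of 0.04, where 22.1% of all genes were called higher and 37.5% lower. The lower genes included Rif1, a partner of Trp53bp1 in protecting broken ends, with 0.38, 1.11, 0.96, 0.92 and 0.85 FPKM in Naive-Mac against 8.14 to 10.62 FPKM in Naive (log2 change -2.46, adjusted p = 3.56e-09). Rif1 was also called lower in Resist-Mac (log2 change -1.10, adjusted p = 1.35e-05), and it was called after the length and GC correction in both, at -1.14 in Naive-Mac and -0.67 in Resist-Mac. Rfc1, the large subunit of the clamp loader, was at 2.02, 2.27, 1.86, 2.79 and 2.53 FPKM in Naive-Mac against 25.26 to 27.34 FPKM in Naive (log2 change -3.07, and -2.26 after the correction). Other genes of the set went up. Tdg, from the base excision list, averaged 30.5 FPKM in Resist-Mac against 3.26 FPKM in Resist. In Naive-Mac it averaged 5.91 FPKM against 4.37 FPKM in Naive. Parp3 averaged 6.55 FPKM in Resist-Mac against 1.21 FPKM in Resist, and 3.54 FPKM in Naive-Mac against 0.646 FPKM in Naive.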

How the data were processed

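Tumor cell mRNA was enriched with oligo-dT beads and sequenced with paired ends on a BGISEQ-500 by the authors. Per the labels' processing notes, Bowtie2 and the genome build mm9 were used, with no role or version given. The authors deposited FPKM in 3 tables, one each for batches 1, 2 and 3, and the table of Naive and Resist libraries was deposited as log2(FPKM + 1) and turned back to FPKM. Each library was scaled on its own, so levels set across tables rest on that scaling. The tables carry no counts, so depth is unknown. Genes are listed by Entrez identifier and were named with a RefSeq table (GRCm38.p6), and all 42 repair genes matched. BGI_novel entries were dropped. They held 8.45% of FPKM in the batch 1 table. No coordinates are given, since the annotation at hand is of another build than mm9.

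The test was limma 3.58.1 in R 4.3.3 on log2(FPKM + 1), with a trend in the prior variance, for genes that averaged 1 FPKM or more in the libraries of a comparison. Calls needed more than a 1.5-fold change and a p under 0.05 after Benjamini-Hochberg adjustment across every tested gene. Fold changes are on the log2(FPKM + 1) scale, which understates the change of low genes, and folds in means are of plain FPKM. The length and GC correction removed, in each library, a spline (4 degrees of freedom each) of the length and GC content of the longest annotated transcript (GENCODE vM21, also of another build). On simulated data for Resist minus Naive over 10063 genes, with no length trend, 96.5% of 200 genes changed by 1 log2 unit were called. The changed genes were drawn from those with a mean log2(FPKM + 1) over 1.5. That share therefore does not cover lower genes such as Brca1 and Brca2, or smaller changes. The noise-distribution method followed NOISeq, at a probability over 0.8. Both the fold and the absolute FPKM difference of a gene are set against those between replicate libraries over all genes. Genes of low FPKM therefore pass it less easily. In Resist minus Naive and in Resist-Mac minus Resist it called fewer genes than the study reported, so it does not reproduce that result.

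The 42 genes, their role groups and the wider lists were chosen with earlier results of these data known. Counts over the list of androgen response genes are not reported here. Values in every library are given for genes called without overlap of groups (up to 8 per comparison), for Brca1, Brca2, Atm, Trp53, Parp1 and Prkdc, and for the largest change of each role group in Resist minus Naive. Values of Nbn, and those of genes outside these rules, were chosen after they were seen. Same-numbered libraries were checked for shared deviations, and the numbers do not pair the libraries. Alternatives covered scaling, filters, pseudocount, thresholds, a replicate block, one fit over all groups and leaving out each library. The principal-transcript length, the fit without depleted libraries rich in neutrophil markers, and the joint use of the correction with these or with the block were chosen after seeing the data.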

Additional observations from a re-analysis of the deposited data

Results flagged for a closer look

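For 17 of the 39 repair genes tested, limma on the deposited FPKM called a difference between what depletion did in resistant and in naive tumors. Over all 9876 genes tested 4015 were called, a share close to that of the repair genes. The values are the log2 change in the resistant pair less that in the naive pair. In break sensing and signaling they were 1.72 for Rad50, 1.06 for Nbn, 1.17 for Mdc1, 1.08 for Trp53bp1, 0.87 for Atm, 0.78 for Atr and 0.71 for Trp53. In recombination, crosslink repair and end joining they were 0.93 for Bard1, 0.64 for Brca1, 0.96 for Fanca and 0.63 for Prkdc. In the excision and mismatch routes they were 1.48 for Parp1, 0.73 for Lig3, 0.84 for Msh6, 0.72 for Ercc2, 0.91 for Xpc and -0.81 for Xpa. The batches differ in the same way as the groups, so the 2 cannot be told apart. After the length and GC correction only Rad50, Nbn and Parp1 of these genes were still called.

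One library stood apart from its group. Xpa in Resist-Mac had its lowest library at 7.16 FPKM, while the other 4 lay between 9.42 and 10.02 FPKM. Of 64 groups of 5 libraries examined in this way 1 had such a library, where 3.2 would be expected by chance.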

How the results depend on the processing

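Depth is unknown and each library pools 3 mice, so these limits cover processing only. In Resist minus Naive the count of 1 became 0 under median-ratio scaling, a fold change over 2 or the noise-distribution method and 2 at an adjusted p alone, and was 0 to 1 when a library was left out. In Resist-Mac minus Resist the count of 4 became 0 under the length and GC correction, with the longest or the principal transcript or with a replicate block added, under a fold change over 2 and under the noise-distribution method. With the correction and without neutrophil-rich libraries it was 3, all higher and none of them among the 4 (Rad54l 0.63, Xrcc6 0.59 and Pms2 0.75). It was 1 with a mean of at least 5 FPKM or quantile normalization, 7 with a pseudocount of 0.1 and 10 at an adjusted p alone, and 2 to 5 when a library was left out. In Naive-Mac minus Naive the count of 21 became 7 under the correction, with or without a replicate block, 9 with the principal transcript, 10 without neutrophil-rich libraries and with the correction, 11 with a mean of at least 5 FPKM or a fold change over 2, and 4 by the noise-distribution method, and was 20 to 22 when a library was left out. Its median of -0.50 became -0.30 under median-ratio scaling, 0.0414 under quantile normalization, 0.0356 with the principal transcript, -0.0404 under the correction with or without a replicate block and 0.0184 with the correction and without neutrophil-rich libraries. When a library was left out the medians ranged from -0.58 to -0.46 there, from -0.06 to -0.03 in Resist minus Naive and from -0.11 to -0.0023 in Resist-Mac minus Resist. Over all genes in Resist minus Naive, 643 of 10119 were called, 614 under median-ratio scaling and 360 by the noise-distribution method. No count over all genes is given here for a fold change over 2, or for an adjusted p alone in Resist-Mac minus Resist. In Resist-Mac minus Resist 2181 of 10049 genes were called, 879 of 10027 under the correction and 1789 of 10049 under quantile normalization. The count was 823 of 10013 with the principal transcript and 896 of 10027 with the correction and a replicate block. It was 1161 of 9875 with the correction and without neutrophil-rich libraries. A mean of at least 5 FPKM gave 1785 of 7740, and a pseudocount of 0.1 gave 2524 of 10049. In Naive-Mac minus Naive 5868 of 9837 genes were called, 3561 of 9655 under the correction and 3627 of 9837 by the noise-distribution method. The count was 3229 of 9586 with the principal transcript and 3570 of 9655 with the correction and a replicate block. It was 3694 of 9683 with the correction and without neutrophil-rich libraries, and 4356 of 7214 with a mean of at least 5 FPKM.

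The 17 genes called in the difference between depletion effects became 11 under median-ratio scaling, 10 under quantile normalization, 9 with a mean of at least 5 FPKM, 7 with the principal transcript, 5 at a fold change over 2 or with the correction and without neutrophil-rich libraries, and 4 under the correction with or without a replicate block, and were 15 to 17 when a library was left out. Over all 9876 genes 4015 were called, 4063 under median-ratio scaling and 2991 under quantile normalization. With the correction 2376 of all 9854 genes were called, and 2397 with a replicate block added. The count was 2222 of 9840 with the principal transcript and 3216 of 7480 with a mean of at least 5 FPKM. It was 2002 of 9772 with the correction and without neutrophil-rich libraries. The turned signs that follow are of genes called before or after a correction, and signs of other genes, such as Mre11a, turned as well. Under the correction, signs turned in Naive-Mac minus Naive for Bard1 (0.0209), Rad54l (0.63), Atr (0.0792), Trp53bp1 (0.0409), Prkdc (0.67), Lig3 (0.29), Apex1 (-0.19) and Xpa (-0.0043). With the principal transcript they turned for Bard1 (0.15), Blm (0.0364), Atm (0.0347), Atr (0.12), Trp53bp1 (0.10), Fancd2 (0.69), Fanci (0.74), Prkdc (0.73), Lig4 (0.0866), Xrcc4 (-0.61), Lig3 (0.36), Apex1 (-0.10), Msh6 (0.069986) and Xpa (-0.14). In the difference between depletion effects they turned under the correction for Brca1 (-0.24), Atm (-0.14), Atr (-0.0948), Trp53bp1 (-0.0731), Prkdc (-0.48) and Lig3 (-0.16), and with the principal transcript for Brca1 (-0.30), Atm (-0.17), Atr (-0.11), Trp53bp1 (-0.10), Fancd2 (-0.62), Prkdc (-0.52), Lig3 (-0.19) and Ercc2 (-0.0074). The cause of these changes was not tested.

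Deviations of same-numbered libraries correlated between -0.16 and -0.03 in Resist and Naive, between -0.27 and 0.36 in Resist-Mac and Resist and between -0.16 and 0.23 in Naive-Mac and Naive, so the numbers do not pair them. The fit with a replicate block alone gave 1, 4, 21 and 17 called genes, as without it.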

Other observations

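In Resist minus Naive 6.35% of all genes were called. Of the proliferation and DNA replication genes, 1 of 42 was called, E2f2, an E2F transcription factor, at 6.19 against 11.4 FPKM (log2 change -0.82, adjusted p = 0.00242). The median log2 change of the 42 genes was -0.27, against 0.03 over all genes tested, and 37 of them were negative. At an adjusted p alone 9 were lower and 0 higher, where 18.9% of all genes passed in either direction. In Naive-Mac minus Naive 10 of the 42 were called higher and 12 lower, where 22.1% of all genes were called higher and 37.5% lower. After the length and GC correction 12 were called higher and 3 lower, where 1733 of all 9655 genes were higher and 1828 lower. Mki67, the proliferation marker, read 0.46, 0.65, 0.23, 0.28 and 0.95 FPKM in Naive-Mac against 12.39 to 19.46 FPKM in Naive (log2 change -3.42, and -1.64 after the length and GC correction). Cdk1, the mitotic kinase, was higher at 23.1 against 6.79 FPKM (log2 change 1.62, and 2.34 after the correction), so these 2 markers of dividing cells went in opposite directions.

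Where 6.35% of all genes were called in Resist minus Naive, 1 of 21 tested p53 targets was called higher and 1 lower. These were Dglucy, at 4.82 against 1.39 FPKM (log2 change 1.21, adjusted p = 0.00419), and Gdf15, a secreted stress factor, at 12.8 against 23.6 FPKM (log2 change -0.77, adjusted p = 0.0466). In Resist-Mac minus Resist 3 of 22 were called higher and 2 lower, where the shares over all genes were 12.0% higher and 9.71% lower. In Naive-Mac minus Naive 2 of 21 were called higher and 7 lower, where 22.1% of all genes were called higher and 37.5% lower.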
